A study of Mus musculus with 5 samples.

Results

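The genes described here are histone genes of mouse lung cells, the features of the deposited tables whose names start with Hist1h, Hist2h, Hist3h or Hist4 and that held at least 10 counts over the 5 libraries of the study. Of 42454 features 9 had such a name and 6 of them reached 10 counts: Hist1h2an, Hist1h2ao and Hist1h2ap, which code for histone H2A, Hist1h2bp, which codes for H2B, and Hist1h4m and Hist1h4n, which code for H4. No H1 or H3 gene had such a name. Most histone genes stood in the tables under a newer symbol, so that 69 features were histone genes by their present or their older symbol, with 6 for the linker histone H1, 19 for H2A, 19 for H2B, 12 for H3 and 13 for H4. The 6 named genes are described first, and the 60 features with a newer symbol are set beside them. The count over all barcodes chose the genes and is given as a description. Hist1h2ao had 1744 counts, Hist1h2an 1006, Hist1h4n 51, Hist1h2bp 42, Hist1h4m 18 and Hist1h2ap 10, just inside the limit. Just outside it were Hist1h2al with 8 counts, Hist1h2br with 1 and Hist1h2bq with 0.

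The libraries were single-cell RNA libraries of the 10x Genomics Chromium system from lungs of C57BL/6J mice. Newborn mice and their mothers were kept in air or in more than 95% O2 for 3 days, with the dams rotated between litters, and the pups then recovered in room air. Unsorted lung cells were collected after air and after hyperoxia at postnatal day (pnd) 7 and pnd60, which gave 4 libraries. The fifth library held cells of hyperoxia-exposed lungs at pnd7 that were sorted for C12FDG, a substrate that fluoresces once cut by β-galactosidase, from the pooled lungs of 3 mice. Each condition had 1 library, so no comparison between conditions was tested, and all intervals below are 95% intervals that cover counting error only. The number of mice behind each unsorted library is not given in the sources used here. In the paper the 4 unsorted libraries are a dataset published earlier and used as controls, while the sorted library was made for the paper. Sorting and dataset can thus not be told apart.

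Replication-dependent histone genes supply the histones that package newly made DNA. They lie in clusters, have no introns, and are transcribed mainly while DNA is copied in S phase. Their mRNAs are the only metazoan mRNAs known to end in a conserved stem-loop in place of a poly(A) tail, and the stem-loop is bound by the protein SLBP, which acts in their processing, translation and decay. The libraries were primed from poly(A), so a count of such a gene stands for the RNA that was primed in this way and not for all histone mRNA. Histone mRNA can also carry a poly(A) tail, which is known from differentiated cells.

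All 6 named genes lie on chromosome 13 (GRCm38) within a stretch that runs from Hist1h2an at chr13:21786826-21787218 on the minus strand to Hist1h2ap at chr13:21833026-21833507 on the minus strand. Between them lie Hist1h2bp at chr13:21787508-21787976, Hist1h2ao at chr13:21810465-21810944 and Hist1h4m at chr13:21811746-21812147, all on the plus strand, and Hist1h4n at chr13:21831767-21832196 on the minus strand. The stem-loops are shown because they set where these mRNAs end and so what poly(A) priming can reach. They are given from the GENCODE M21 transcripts, 5′ to 3′, with the stem-loop in capitals.
Hist1h2ao: aaaaaGGCTCTTTTCAGAGCCatccacagt
Hist1h2ap: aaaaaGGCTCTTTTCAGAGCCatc
Hist1h2bp: acaaaGGCTCTTTTCAGAGCCacccacatt
Hist1h4m: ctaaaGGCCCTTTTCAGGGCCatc
Hist1h4n: ctaaaGGCCCTTTTCAGGGCCatccaatta
The annotated transcripts of Hist1h4m and Hist1h2ap stopped 3 bases after the stem-loop. Those of Hist1h2ao and Hist1h4n went on for 31 bases and that of Hist1h2bp for 38 bases. The annotated transcript of Hist1h2an, 393 bases long, was the coding sequence alone and held no stem-loop. Before the stem-loop, Hist1h2ao and Hist1h2ap held a run of 12 A bases, and the longest such run was of 4 bases in the other 3 genes with a stem-loop.

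Reads of these genes are hard to place, because the genes are near-identical copies. Over 393 coding bases, Hist1h2an and Hist1h2ao differed at 5 positions, counted from the A of the start codon and with the base of Hist1h2an first: A18G, C24T, G150C, A345G and G354C. The coding sequences of Hist1h2ao and Hist1h2ap were identical, as were those of Hist1h4m and Hist1h4n. In Hist1h2ao, 362 of 390 windows of 91 bases (92.8%) were also found in another gene, and the 28 windows of its own were the last ones, windows 363 to 390. Each of these held bases more than 3 past the stem-loop, where the annotated transcript of Hist1h2ap had ended. They could thus not match Hist1h2ap and do not show a difference in sequence between these genes. RefSeq gives Hist1h2ap as an older symbol of both H2ac23, the record of Hist1h2ao, and H2ac24. In Hist1h2an 254 of 303 windows (83.8%) were shared, and windows 255 to 303 were its own. Hist1h2ap shared 92.3% of its windows and had its own windows only at the start, from 1 to 30. Counted back from the stem-loop, these began before the annotated start of Hist1h2ao, so they too show no difference in sequence from it. The shares were 88.5% for Hist1h4m, 81.2% for Hist1h4n and 54.6% for Hist1h2bp. Windows 313 to 340 of Hist1h4n ran past the annotated end of Hist1h4m and likewise show no difference from that gene. Genes that shared windows with Hist1h2ao numbered 36, with further H2A genes and the variant gene H2afx among them. The values below therefore belong to a feature as the counting placed its reads, and a read of an identical stretch could not be tied to its gene by sequence.

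**Figure D1:**
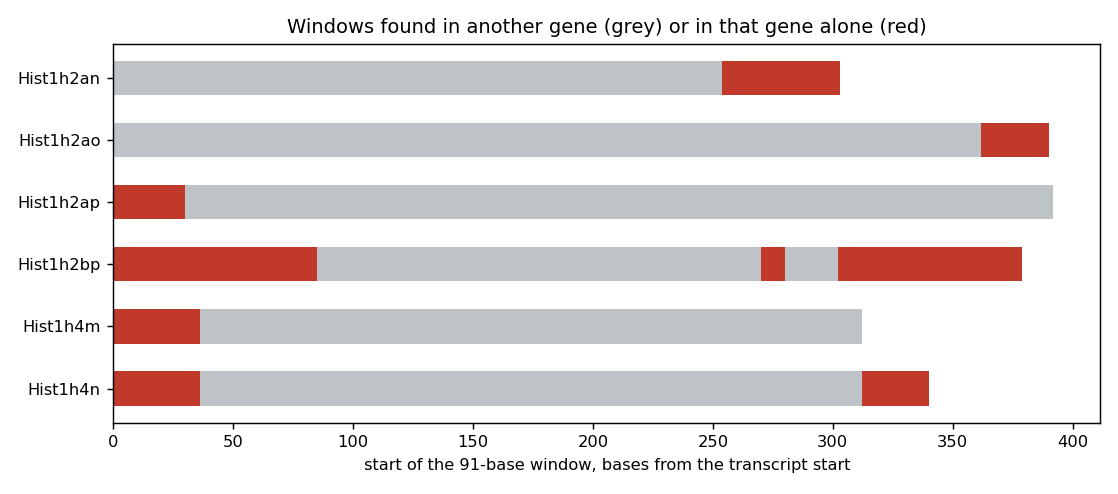
Stretches of each annotated transcript by the start of a 91-base window, in bases from the transcript start, with windows found in another gene in grey and windows found in that gene alone in red. Hist1h2an and Hist1h2ao had their own windows at the end of the transcript, and Hist1h2ap only at its start. The red windows of Hist1h2ao lie past the annotated end of Hist1h2ap and do not show a difference in sequence from it. The same holds for those of Hist1h2ap, which begin before the annotated start of Hist1h2ao. It also holds for the last red windows of Hist1h4n, which run past the annotated end of Hist1h4m.

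The promoter windows of Hist1h2an and Hist1h2ao are shown because these 2 genes held most of the counts and were both higher in dividing cells. They run from 250 bases before to 50 bases after the RefSeq start (GRCm38.p6), with CCAAT and TATAAA on either strand in capitals. RefSeq names these genes H2ac22 and H2ac23.
Hist1h2an, chr13:21787199-21787498, minus strand: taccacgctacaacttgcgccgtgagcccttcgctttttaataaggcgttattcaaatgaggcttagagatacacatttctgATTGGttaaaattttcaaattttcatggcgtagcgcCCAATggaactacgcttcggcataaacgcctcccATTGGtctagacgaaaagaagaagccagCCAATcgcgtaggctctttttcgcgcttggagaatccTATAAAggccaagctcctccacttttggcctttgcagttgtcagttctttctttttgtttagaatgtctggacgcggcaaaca
Hist1h2ao, chr13:21810117-21810416, plus strand: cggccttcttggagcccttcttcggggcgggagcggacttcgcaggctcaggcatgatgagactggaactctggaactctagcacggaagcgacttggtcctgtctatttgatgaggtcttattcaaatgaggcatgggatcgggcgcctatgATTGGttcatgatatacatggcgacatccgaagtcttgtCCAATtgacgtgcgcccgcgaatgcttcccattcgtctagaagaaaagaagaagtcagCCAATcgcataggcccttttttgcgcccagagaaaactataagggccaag
The window of Hist1h2an held CCAAT 4 times and TATAAA once, and that of Hist1h2ao held CCAAT 3 times and no TATAAA. Neither held the octamer ATTTGCAT. Over 32851 promoter windows of the same length, 37.4% held CCAAT, 13.6% held TATAAA and 1.74% held ATTTGCAT on either strand. The window of Hist1h2ao ended before the start of its GENCODE transcript at chr13:21810465. That of Hist1h2an reached past its own GENCODE start at chr13:21787218, so both windows do not cover matching stretches. These matches describe letters in the window and not bound sites.

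After the filter on genes and mitochondrial reads, 493 to 4756 cells and 7880365 to 16648251 counts per library were kept. A cell was called dividing when it held at least 4 different genes of lists for S phase and for G2 and M phase, which hold no histone gene, and when these made up at least 0.1% of its counts. Dividing cells were 614 of 2308 cells after air at pnd7 (26.6%), 428 of 1246 after hyperoxia (34.3%) and 141 of 493 in the sorted library (28.6%). At pnd60 they were 223 of 4397 after air (5.07%) and 254 of 4756 after hyperoxia (5.34%). Median counts per cell differed between libraries, from 2168 after air at pnd60 to 15529 in the sorted library, and the call of a dividing cell moves with depth. Mki67, a proliferation marker, stood at 402 to 505 CPM in dividing cells and at 1.79 to 16.8 CPM in the others. CPM are the counts of a gene scaled to the same total in each group of cells. Mki67 is itself a gene of the G2 and M phase list, so this gap is in part built into the call. The labels call the sorted cells senescent, and Cdkn1a, which codes for p21, stood at 108 CPM in their non-dividing cells against 20.9 CPM in unsorted hyperoxia cells. These cells were not matched by class, and the sorted ones were mostly alveolar macrophage-like. Of all genes tested in non-dividing cells, 8.46% were at least 2-fold higher and 38.9% lower when sorted. Erythroid-like cells were 707 of the kept cells after air at pnd7 and 3 to 58 in the other libraries. Any pair of libraries shared 0 to 7 barcodes.

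Counts of the 6 histone genes lay mostly in dividing cells in all 5 libraries. Dividing cells held 756 of 829 of these counts after air at pnd7 (91.2%), 879 of 920 after hyperoxia (95.5%), 303 of 324 in sorted cells (93.5%), 61 of 76 after air at pnd60 (80.3%) and 322 of 423 after hyperoxia at pnd60 (76.1%). Of all counts of all genes, dividing cells held 28.3%, 36.1%, 30.7%, 9.29% and 8.97% in the same order.

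The summed level in dividing cells was 161 CPM after air at pnd7 (interval 149 to 172), 179 after hyperoxia (168 to 192), 125 in sorted cells (112 to 140.2), 44.5 after air at pnd60 (34 to 57.2) and 217 after hyperoxia at pnd60 (194 to 242). In non-dividing cells it was 6.11, 4.73, 3.84, 1.12 and 6.71 CPM in the same order. Dividing cells were higher by 4.71, 5.25, 5.03, 5.31 and 5.02 on the log2 scale, with intervals that together ran from 4.37 to 6.23. The highest level in dividing cells was thus that of hyperoxia at pnd60 and the lowest that of air at pnd60, and the log2 ratio of dividing to non-dividing cells lay between 4.71 and 5.31 in all 5 libraries. With each cell thinned to 1000 counts it lay between 2.32 (0.09 to 4.95) in the sorted library and 4.27 (3.23 to 5.53) after hyperoxia at pnd7. The thinned sorted value rested on 6 and 3 counts, so a smaller gap in that library is not settled. Counting only genes with at least 50 counts in a comparison, both Hist1h2an and Hist1h2ao were at least 2-fold higher in dividing cells in each of the 3 pnd7 libraries, beside 4.64%, 5.16% and 5.13% of all genes tested after air, after hyperoxia and in sorted cells. Of all genes 4.14%, 5.04% and 3.54% were at least 2-fold lower there. After hyperoxia at pnd60 the 1 named gene with enough counts, Hist1h2ao, was higher, beside 5.7% of all genes higher and 18.7% lower. After air at pnd60 none of the 6 had 50 counts, and 6.7% of all genes tested were higher and 18.8% lower.

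Hist1h2an, a replication-dependent H2A gene, stood in dividing cells at 72.4 CPM after air at pnd7 (341 counts), 72.6 after hyperoxia (356), 26.9 in sorted cells (65), 21.2 after air at pnd60 (29) and 16.9 after hyperoxia at pnd60 (25). Both unsorted pnd7 libraries were high and alike, and the intervals of the sorted and both pnd60 libraries overlapped. In non-dividing cells it had 37, 15, 4, 3 and 9 counts in this order, or 3.1, 1.73, 0.732, 0.224 and 0.598 CPM. Hist1h2ao, also an H2A gene, stood in dividing cells at 83.7 CPM after air at pnd7 (394 counts), 99.6 after hyperoxia (488), 96.4 in sorted cells (233), 20.4 after air at pnd60 (28) and 198 after hyperoxia at pnd60 (294). Its 3 pnd7 values lay close together, that of air at pnd60 was the lowest and that of hyperoxia at pnd60 the highest, and neither pnd60 interval overlapped a pnd7 one. In non-dividing cells it had 29, 21, 15, 9 and 75 counts, or 2.43, 2.42, 2.75, 0.673 and 4.98 CPM.

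**Figure D2:**
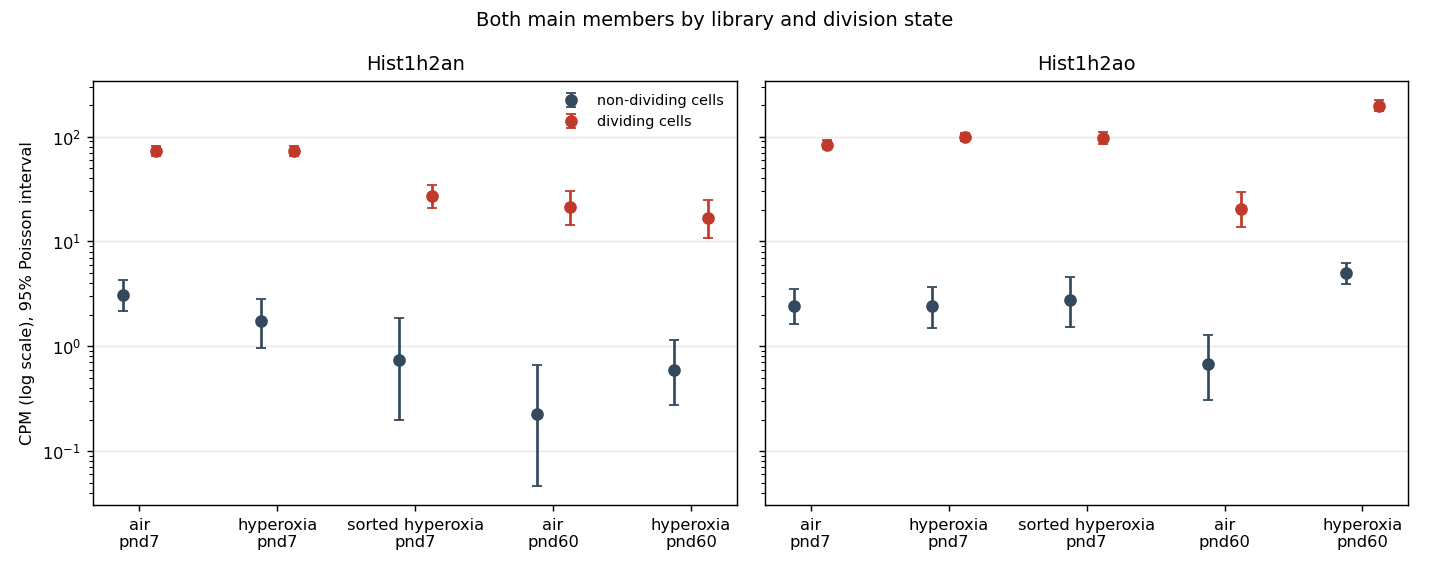
Levels of Hist1h2an (left) and Hist1h2ao (right) in CPM on a log axis by library, for dividing cells in red and non-dividing cells in dark blue, with 95% Poisson intervals as bars and 1 library per point. Hist1h2ao in dividing cells was 20.4 CPM after air and 198 CPM after hyperoxia at pnd60, while Hist1h2an was 21.2 and 16.9 CPM.

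The other named genes had few counts in kept cells. Hist1h4n, an H4 gene, had 9, 16, 3, 5 and 10 counts in the 5 libraries in the order used above, and all 10 counts of hyperoxia at pnd60 lay in non-dividing cells while 15 of 16 of hyperoxia at pnd7 lay in dividing ones. Hist1h2bp, an H2B gene, had 11, 15, 3, 2 and 4 counts. Hist1h4m, an H4 gene, had 4, 4, 1, 0 and 6. Hist1h2ap, the third H2A gene, had 4 counts after air and 5 after hyperoxia at pnd7, all in dividing cells, and 0 in the other 3 libraries. The upper limits of the intervals of these 0 counts were 0.468 CPM in sorted cells, 0.25 after air at pnd60 and 0.223 after hyperoxia at pnd60. By histone type, the H2A sum in dividing cells was 157, 173, 123, 41.6 and 215 CPM. The H2B gene stood at 1.7, 2.45, 0.827, 0.73 and 1.35 CPM and the H4 sum at 1.91, 3.67, 1.24, 2.19 and 0.674 CPM. The named H2B and H4 genes were thus at or below 3.67 CPM in every library, and the sum over the 6 genes was in the main a sum of H2A.

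Few cells held these counts. At least 1 count of a named gene was found in 159 of 614 dividing cells after air at pnd7 (25.9%), 143 of 428 after hyperoxia (33.4%), 53 of 141 in sorted cells (37.6%), 25 of 223 after air at pnd60 (11.2%) and 43 of 254 after hyperoxia at pnd60 (16.9%). With each cell thinned to 1000 counts the shares were 9.45%, 12.4%, 4.26%, 2.24% and 8.7%, so that sorted cells, the deepest library, went from the highest share to below 3 of the other libraries. In non-dividing cells, which should hold little of these mRNAs, the shares were 4.07%, 3.91%, 5.68%, 0.359% and 2.09% unthinned and 1.54%, 0.857%, 0.852%, 0.169% and 0.987% thinned. Single cells held up to 41 counts of the named genes after hyperoxia at pnd7 and up to 26 after hyperoxia at pnd60. In the latter library 42 dividing cells held the 294 counts of Hist1h2ao, while its 75 counts in non-dividing cells were spread over 70 cells with at most 2 counts each.

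Histone counts were higher where genes of G2 and M phase led than where genes of S phase led. Dividing cells were split by which list held more counts, S phase (29 genes) or G2 and M phase (44 of 45 listed genes), so the split depends on the lists. S genes led in 183 of 614 dividing cells after air at pnd7 and in 142 of 428 after hyperoxia. They led in 80 of 141 sorted dividing cells, 146 of 223 after air at pnd60 and 171 of 254 after hyperoxia at pnd60. The mix of dividing cells thus differed between libraries. Cells led by G2 and M genes held the 6 genes at 211 CPM after air at pnd7, 256 after hyperoxia, 183 in sorted cells, 89.6 after air at pnd60 and 469 after hyperoxia at pnd60. Cells led by S genes held them at 85.5, 58.5, 70.8, 12.5 and 49.4 CPM. The log2 differences were 1.30, 2.13, 1.37, 2.84 and 3.25, and no interval reached 0. Of the named genes with at least 50 counts, 1 of 2 was at least 2-fold higher in G2 and M-led cells after air at pnd7, where 3.56% of all genes were higher and 2.48% lower. The counts were 2 of 2 after hyperoxia, where 4.27% of all genes were higher and 2.4% lower, and 2 of 2 in sorted cells, where 3.21% were higher and 1.27% lower. After hyperoxia at pnd60 1 of 1 was higher, beside 4.07% of all genes higher and 4.1% lower, and after air at pnd60 none had 50 counts, beside 3.36% higher and 2.56% lower. Hist1h2ao was the steeper of the pair after hyperoxia at pnd7, with 148 CPM in G2 and M-led cells and 22.7 in S-led ones, against 97.6 and 33.2 for Hist1h2an.

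**Figure D3:**
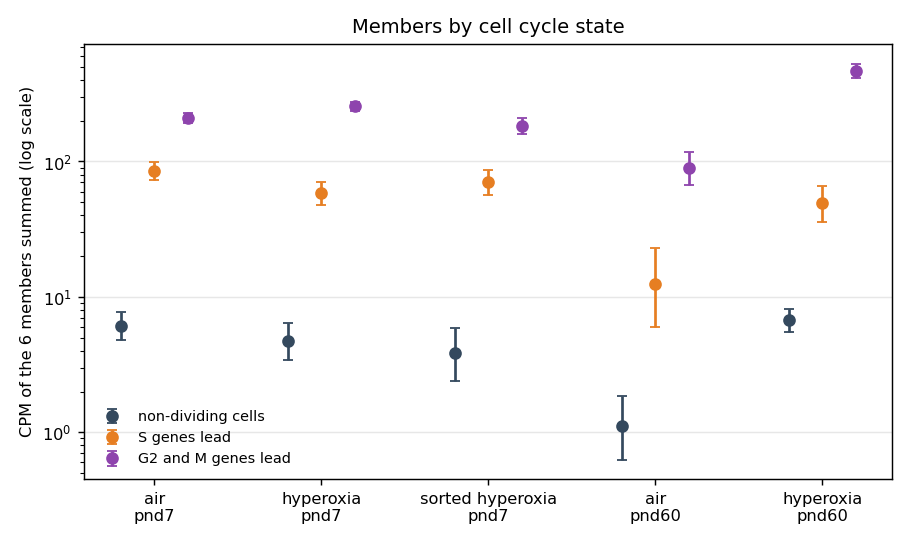
Summed level of the 6 named histone genes in CPM on a log axis by library, for non-dividing cells in dark blue, dividing cells led by S phase genes in orange and dividing cells led by G2 and M phase genes in purple, with 95% Poisson intervals as bars. In every library the order was the same, from 1.12 to 6.71 CPM in non-dividing cells to 89.6 to 469 CPM in G2 and M-led cells.

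The histone genes with a newer symbol give the context of all 5 types. They held 7848, 9544, 1945, 1721 and 2096 counts in the 5 libraries, several times those of the named genes. The features with the most counts in kept cells were H2ac8 (Hist1h2ae) with 3740, the linker histone gene H1f5 (Hist1h1b) with 3690, H2bc4 (Hist1h2bc) with 3628 and the linker histone gene H1f4 (Hist1h1e) with 2696. Hist1h2ao with 1586 and Hist1h2an with 884 came as the fifth and the seventh. Dividing cells held 76%, 84%, 75.4%, 30.7% and 26.6% of the counts of the genes with a newer symbol, less than for the named genes in each library.

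Summed over all 69 features, H1 stood at 514 CPM in dividing cells after air at pnd7, 659 after hyperoxia, 191 in sorted cells, 124 after air at pnd60 and 113 after hyperoxia at pnd60. H2A stood at 548, 669, 315, 128 and 300.0 CPM. H2B stood at 152, 220.4, 96.8, 84.6 and 83.6 CPM, H3 at 89.6, 118, 35.6, 50.4 and 55.9 and H4 at 123, 147, 94.3, 43.1 and 39.8. The pnd60 libraries were thus below the unsorted pnd7 libraries for each of the 5 types, and both pnd60 libraries stood apart from each other in H2A. Of these H2A levels at pnd60, Hist1h2ao alone made up 20.4 of 128 CPM after air and 198 of 300.0 CPM after hyperoxia. The difference between dividing and non-dividing cells was largest for H2A in 4 of 5 libraries and smallest for H2B in all 5, at 1.49, 1.41, 0.66, 0.70 and 0.45 on the log2 scale.

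H2bc4, an H2B gene, was the most abundant H2B feature and differed by less than 2-fold between the cells: 66.1 CPM in dividing and 43.8 in non-dividing cells after air at pnd7, 111 and 71.5 after hyperoxia, 45.1 and 56.8 in sorted cells, 31.4 and 37.3 after air at pnd60 and 37.1 and 40.9 after hyperoxia at pnd60. H2bc21 (Hist2h2be), another H2B gene, stood at pnd60 at 8.3 CPM in non-dividing and 5.11 CPM in dividing cells after air. After hyperoxia it stood at 11.2 and 4.04 CPM. In these dividing cells 3 counts amount to 2.19 CPM after air and 2.02 CPM after hyperoxia, so both values rest on few counts. H1f5 was at the other end, with 286 against 6.53 CPM after air at pnd7 and 59.3 against 0.399 CPM after hyperoxia at pnd60. H1f4 lay between them, with 141 against 32.2 CPM after air at pnd7. H1f3 (Hist1h1d), H1f2 (Hist1h1c) and H1f1 (Hist1h1a) stood at 31, 27.6 and 29.1 CPM in dividing cells of that library and at 1.68, 7.79 and 1.01 CPM in non-dividing ones. H1f6 (Hist1h1t), the testis linker histone, had 1 count in all. Among all 69 features, those with at least 50 counts were at least 2-fold higher in dividing cells in 25 of 27 after air at pnd7, 27 of 28 after hyperoxia, 6 of 7 in sorted cells, 6 of 8 after air at pnd60 and 7 of 10 after hyperoxia at pnd60. Their median log2 differences were 3.37, 4.07, 4.83, 1.97 and 1.59, beside -0.05, -0.06, 0.02, -0.08 and -0.08 over all genes tested.

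**Figure D4:**
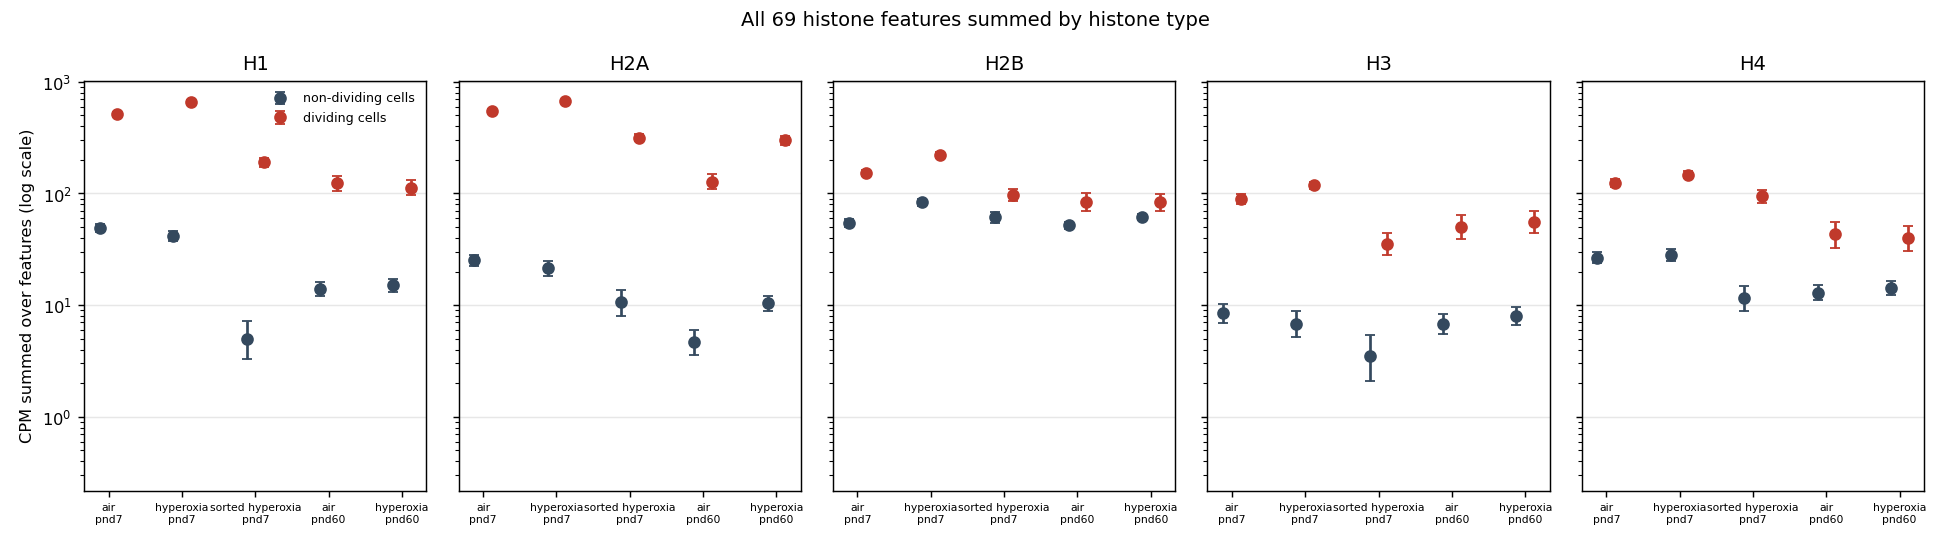
Summed level of all 69 histone features by histone type (panels) and library in CPM on a log axis, for dividing cells in red and non-dividing cells in dark blue, with 95% Poisson intervals as bars. H2B shows the smallest gap between the cells. H2A is the type in which dividing cells differ between the pnd60 libraries, at 128 CPM after air and 300.0 CPM after hyperoxia. Hist1h2ao alone made up 20.4 and 198 CPM of these sums.

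At pnd7 the named genes differed by less than 2-fold between hyperoxia and air. In dividing cells the named genes summed to 179 CPM after hyperoxia and 161 after air, a log2 ratio of 0.16 (0.02 to 0.30), and in non-dividing cells to 4.73 and 6.11, a ratio of -0.37 (-0.96 to 0.20). Of the 2 named genes with at least 50 counts, 0 were 2-fold higher or lower in dividing cells, where 0.623% of all genes were higher and 1.46% lower, and 0 in non-dividing cells, where 0.442% were higher and 1.2% lower. The ratios in dividing cells were 0.25 (0.06 to 0.45) for Hist1h2ao and 0.00 (-0.21 to 0.22) for Hist1h2an. All 5 types over the 69 features were higher after hyperoxia in dividing cells, from 0.26 for H4 to 0.53 for H2B. This did not hold in S-led cells alone, where H2A was lower, at 184 CPM (165 to 204) against 240.1 (218 to 263). H2B was higher there, at 89.6 CPM against 64.8. The named genes stood at 58.5 CPM after hyperoxia and 85.5 after air in S-led cells, and at 256 and 211 in G2 and M-led ones. In non-dividing cells H2B was higher by 0.61 (0.46 to 0.77) and H1 lower, at -0.23 (-0.42 to -0.04). Over all kept cells 0 of the 2 were 2-fold apart, beside 0.445% of all genes higher and 1.25% lower. Erythroid-like cells made up 310 of the 614 dividing cells after air and 30 of the 428 after hyperoxia. Without them the ratio was 0.02 (-0.12 to 0.17) in dividing cells and turned to 0.15 (-0.48 to 0.79) in non-dividing cells. In dividing cells it was 0.52 (0.06 to 0.98) with cells thinned to 1000 counts, 0.35 (0.21 to 0.49) with a looser and -0.02 (-0.16 to 0.13) with a stricter cut for dividing cells.

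At pnd60 the named genes were higher after hyperoxia in both kinds of cells, and in dividing cells Hist1h2ao carried the difference. In dividing cells they summed to 217 CPM after hyperoxia and 44.5 after air, a log2 ratio of 2.29 (1.89 to 2.71), and in non-dividing cells to 6.71 and 1.12, a ratio of 2.58 (1.79 to 3.47). Hist1h2ao had 294 counts in dividing cells after hyperoxia and 28 after air, a ratio of 3.28 (2.72 to 3.89), while Hist1h2an had 25 and 29, a ratio of -0.33 (-1.16 to 0.49). Hist1h2ao was thus far apart between these libraries and Hist1h2an was not distinguishable at this depth. In dividing cells 1 of 2 named genes with 50 counts was at least 2-fold higher, beside 1.1% of all genes, and in non-dividing cells 1 of 1, beside 0.465%. None was lower, beside 0.609% of all genes in dividing and 0.344% in non-dividing cells. Over all kept cells Hist1h2ao ranked 1 of 14214 genes by its ratio, 3.15 (2.66 to 3.68), with 0.45% of all genes at least 2-fold higher and 0.303% lower. Without Hist1h2ao the sum of the others in dividing cells was 28 counts after hyperoxia and 33 after air, a ratio of -0.35 (-1.13 to 0.42). In non-dividing cells the ratio without it was 1.95 (0.63 to 3.52), with 15 counts of the H4 genes after hyperoxia and 2 after air.

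In the sums over the rest of the family the libraries were closer. The features with a newer symbol summed to 375 CPM after hyperoxia and 385 after air in dividing cells at pnd60, a log2 ratio of -0.04 (-0.21 to 0.14), and to 102 and 89.2 CPM in non-dividing cells, a ratio of 0.20 (0.09 to 0.31). Over all 69 features, the types other than H2A had ratios from -0.13 to 0.15 in dividing cells, and every one of their intervals included 0. H2A stood at 1.23 (0.98 to 1.49), a sum that includes Hist1h2ao. Hist1h2ao held 294 of the 445 H2A counts after hyperoxia and 28 of the 175 after air. In non-dividing cells H2B was also higher, at 0.24 (0.09 to 0.38). H2ac8, the H2A feature with the most counts over the 5 libraries, had 52 counts after hyperoxia and 46 after air in dividing cells, a ratio of 0.06 (-0.54 to 0.67). H1f5 had 88 and 95, a ratio of -0.22 (-0.66 to 0.21). Among all 69 features 1 of 7 with enough counts was 2-fold higher in dividing cells and 1 of 11 in non-dividing cells, and in both this was Hist1h2ao. Over all kept cells 2 of 18 were higher, and beside Hist1h2ao this was H2bu2 (Hist3h2ba), an H2B gene, with 46 counts after hyperoxia and 9 after air, a ratio of 2.19 (1.14 to 3.40). Hemoglobin made up 0.441% of the counts of dividing cells after hyperoxia and 0.0906% after air, and 6 erythroid-like cells after hyperoxia, 5 of them dividing, held 51 counts of Hist1h2ao. All 4 hemoglobin genes with enough counts were higher after hyperoxia in dividing and lower in non-dividing cells. Without erythroid-like cells the ratio of the named genes in dividing cells was 2.17 (1.74 to 2.62).

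The balance of Hist1h2ao and Hist1h2an separated the libraries further. Of the counts of both, Hist1h2ao held 52.8% after air at pnd7 (interval 49.3 to 56.3), 57.8% after hyperoxia (54.5 to 61.1), 78.2% in sorted cells (73.3 to 82.7), 53.6% after air at pnd60 (41.2 to 65.7) and 91.6% after hyperoxia at pnd60 (88.4 to 94.1). Both air libraries were near an even split, and the sorted library and hyperoxia at pnd60 lay apart from the other 3 and from each other. Within hyperoxia at pnd60 the share was 92.2% in dividing and 89.3% in non-dividing cells. It was 88.6% in B cell-like cells (62 counts of Hist1h2ao and 8 of Hist1h2an), 98.1% in T cell-like (53 and 1), 92.5% in alveolar macrophage-like (37 and 3), 92.1% in dendritic cell-like (93 and 8) and 89.5% in erythroid-like cells (51 and 6). The share was thus high in every class with 30 or more counts of the pair. This library held 369 counts of Hist1h2ao and 34 of Hist1h2an, so a class passed that limit mainly through Hist1h2ao. Under the limit, lymphatic endothelial-like cells stood at 88.9% (8 and 1). Natural killer or innate lymphoid cell-like cells stood at 62.5% (5 and 3), with an interval of 24.5 to 91.5. In the sorted library it was 86.7% in interstitial macrophage-like cells (26 and 4) and 77.5% in alveolar macrophage-like ones (221 and 64). In unsorted hyperoxia lungs at pnd7 this class stood at 55.9% (33 and 26), with an interval of 42.4 to 68.8. Among the classes of the unsorted pnd7 libraries with 30 or more counts of the pair, the share ran from 38.5% in endothelial-like cells after air to 75% in B cell-like and alveolar type I-like cells after hyperoxia. In cells that held either gene, both were found together in 64 cells after air at pnd7, 74 after hyperoxia, 23 in sorted cells, 8 after air at pnd60 and 14 after hyperoxia at pnd60. Cells with Hist1h2ao numbered 138, 124, 64, 25 and 112 and cells with Hist1h2an 140, 118, 29, 19 and 23.

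**Figure D5:**
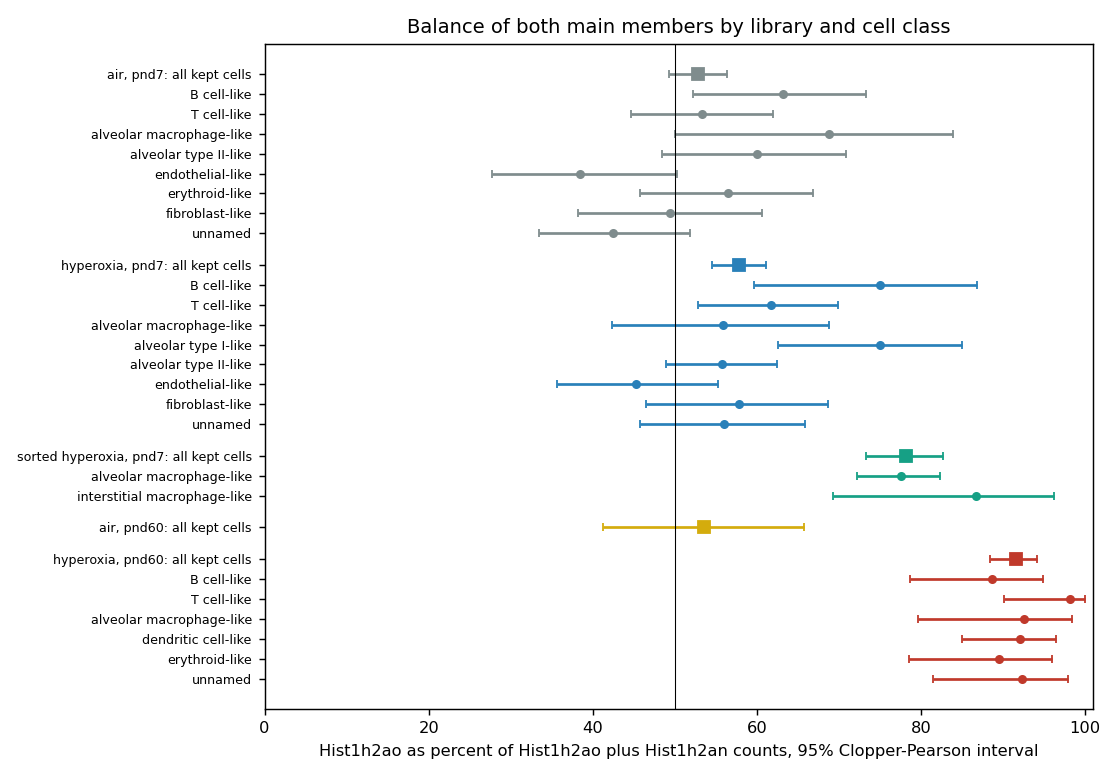
Counts of Hist1h2ao as a percent of the counts of Hist1h2ao plus Hist1h2an, by library (squares) and by cell class with at least 30 counts of the pair (dots), with 95% Clopper-Pearson intervals as bars and a line at an even split. The classes shown for hyperoxia at pnd60 lie from 88.6 to 98.1%, and the air library at pnd60 at 53.6%. Classes of hyperoxia at pnd60 reached 30 counts mainly through Hist1h2ao.

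Sorted cells were compared with unsorted hyperoxia cells at pnd7, which came from the earlier dataset. In dividing cells the named genes summed to 125 CPM in sorted and 179 CPM in unsorted cells, a log2 ratio of -0.52 (-0.71 to -0.33), and in non-dividing cells to 3.84 and 4.73, a ratio of -0.30 (-1.13 to 0.49). The value in dividing cells was -2.15 (-3.64 to -0.97) with each cell thinned to 1000 counts, from 6 sorted and 81 unsorted counts. It was -0.09 relative to the median of all genes, so its size depends on the scaling. The ratio in dividing cells for the main genes was -1.43 (-1.84 to -1.05) for Hist1h2an and -0.05 (-0.28 to 0.18) for Hist1h2ao. In dividing cells 1 of 2 named genes was at least 2-fold lower, beside 32% of all genes lower and 8.69% higher, and the median of all genes was -0.43. Over all kept cells it was again 1 of 2, beside 40.1% lower and 8.04% higher. In non-dividing cells none had 50 counts, and 38.9% of all genes were lower and 8.46% higher. Over the 69 features, H1 was at -1.79 (-1.93 to -1.65) in dividing cells, H2A at -1.09, H2B at -1.19, H3 at -1.73 and H4 at -0.64, all lower in sorted cells. In non-dividing cells H1 was at -3.09, the largest difference of the 5 types. The sorted library held mostly alveolar macrophage-like cells, from a cluster led by Mt1, Hmox1 and Slc7a11, genes of metal and oxidative stress, while unsorted cells of this class came mainly from another cluster. Within the class, dividing cells held the named genes at 127 CPM when sorted (127 cells) and at 128 CPM when unsorted (23 cells), a ratio of -0.01 (-0.43 to 0.43). Hist1h2an was lower in the class at -0.84 (-1.56 to -0.06) and Hist1h2ao was at 0.35 (-0.18 to 0.93). All 69 features summed to 725 CPM in these sorted and 1247 CPM in these unsorted cells, a ratio of -0.78 (-0.92 to -0.64).

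From pnd7 to pnd60 the named genes were lower in air. In dividing cells they stood at 44.5 CPM at pnd60 and 161 CPM at pnd7, a log2 ratio of -1.85 (-2.25 to -1.47), and in non-dividing cells at 1.12 and 6.11, a ratio of -2.45 (-3.36 to -1.63). Hist1h2an was at -1.77 and Hist1h2ao at -2.03 in dividing cells, and 2 of 2 were at least 2-fold lower, beside 14% of all genes lower and 14.4% higher. Over all kept cells 2 of 2 were lower, beside 10.3% lower and 16.1% higher. In non-dividing cells none had 50 counts, beside 9.04% of all genes lower and 16% higher. After hyperoxia the summed level in dividing cells was 217 CPM at pnd60 and 179 CPM at pnd7, a ratio of 0.28 (0.09 to 0.46) that was 0.04 without erythroid-like cells and -0.19 with cells thinned to 1000 counts. The pair parted behind this sum. In dividing cells Hist1h2an was at -2.11 (-2.76 to -1.52) and Hist1h2ao at 0.99 (0.78 to 1.20), so that 1 of 2 was at least 2-fold lower and 0 higher, beside 15.1% lower and 17.9% higher of all genes. In non-dividing cells 1 of 1, Hist1h2ao, was at least 2-fold higher at 1.04 (0.33 to 1.81), beside 19.7% of all genes higher and 8.39% lower. Over all kept cells 1 of 2, Hist1h2an, was lower, beside 10.2% lower and 20.3% higher. The 69 features summed were lower at pnd60 in dividing cells in both, at -1.73 (-1.86 to -1.61) in air and -1.61 (-1.72 to -1.51) after hyperoxia. Each of these comparisons shares its libraries with those above. S-led cells, which had fewer histone counts per total after poly(A) priming, were a larger part of the dividing cells at pnd60 than in unsorted lungs at pnd7. Such counts do not measure all histone mRNA. In G2 and M-led cells the 69 features stood at 1961 CPM at pnd7 and 850.3 at pnd60 in air, and at 2583 and 1163 after hyperoxia. In S-led cells they stood at 626 and 131 in air, and at 598 and 212 after hyperoxia. How much of the fall in dividing cells came from their mix was not tested.

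Cells were also grouped by class from clusters made without histone or cell cycle genes. Dividing cells held more of the named genes than non-dividing cells in 22 of 22 pairs of class and library with at least 20 cells of each kind. With each cell classed by its own markers this held in 22 of 23 pairs. T cell-like cells after air at pnd7 held 418 CPM in 32 dividing cells and 17.8 CPM in 110 others. Alveolar type II-like cells, which make surfactant, held 177 CPM in 76 dividing and 2.72 CPM in 118 non-dividing cells after hyperoxia at pnd7, and 152 and 2.12 CPM after air. Endothelial-like cells held 217 and 1.17 CPM after hyperoxia and 186 and 1.43 CPM after air at pnd7. The difference was smallest in erythroid-like cells after air at pnd7, with 90.4 CPM in 310 dividing and 25.4 CPM in 397 non-dividing cells. Such cells lose their nucleus late in their maturation, and median counts of these were 2186.5 in dividing and 1672 in non-dividing cells, below the 3915 of the library.

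At pnd60 the difference in Hist1h2ao was found in several immune cell classes. Outside them the counts were few, or the cells were not matched or not named. Over all kept cells of a class, Hist1h2ao had 51 counts after hyperoxia and 5 after air in erythroid-like cells. These were 6 cells with 5 dividing after hyperoxia and 17 cells with 1 dividing after air. Hist1h2an had 6 and 1 counts in them. Hist1h2ao had 48 and 7 in unnamed cells. The largest unnamed cluster, led by Sema3g and Sema3c, held 573 cells after hyperoxia and 562 after air and raised 8 of 12 endothelial markers. Another, led by immune genes such as Ctla4 and Foxp3, held 49 and 42 cells. The counts were not split by unnamed cluster. Hist1h2ao had 8 and 0 in lymphatic endothelial-like cells and, the other way, 0 and 2 in fibroblast-like cells. In dividing dendritic cell-like cells it had 90 counts after hyperoxia and 3 after air in 31 cells each, or 312 and 12.5 CPM, while Hist1h2an had 8 and 8. In dividing T cell-like cells it had 42 counts after hyperoxia and 3 after air, with Hist1h2an at 0 and 7, and the largest cluster of these cells was led by Cd8b1 and Cd8a after hyperoxia and by Ccl5 and Nkg7 after air. Dividing B cell-like cells had 22 and 1 counts of Hist1h2ao, and dividing alveolar macrophage-like cells 32 and 7. Non-dividing B cell-like cells had 40 counts in 1246 cells after hyperoxia and 4 in 1233 cells after air, or 17.7 and 1.87 CPM, a log2 ratio of 3.24 (1.78 to 5.19). Non-dividing T cell-like cells had 11 and 0, and monocyte-like cells 4 and 2. The fibroblast-like, endothelial-like, alveolar type II-like and airway epithelial-like classes had 0 or 1 counts of Hist1h2ao in non-dividing cells of either library, so that a difference of this kind was not detectable there. The endothelial-like class leaves out the large unnamed cluster with endothelial markers. In each class above with 20 or more counts, Hist1h2ao was higher after hyperoxia. Over all kept cells it had 369 counts after hyperoxia and 37 after air, so a class reached 20 mainly through the hyperoxia library. The limit thus favours such classes, and their agreement adds no separate support.

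Other genes of histone supply were compared at pnd60 in the same way. Of all genes 0.45% were at least 2-fold higher and 0.303% lower over all kept cells, so that short lists with 0 such genes do not stand apart from all genes. The list of genes for the processing of histone mRNA held 18 genes with enough counts in all kept cells, and 0 of them were 2-fold apart between hyperoxia and air, with a median log2 ratio of -0.01, beside 0.01 over all genes. Slbp, which codes for the stem-loop binding protein, stood at 118 CPM in dividing cells after hyperoxia and 159 CPM after air at pnd60. Npat, an activator of histone gene transcription, stood at 20.9 CPM (31 counts) and 39.4 CPM (54 counts). Of 9 genes listed for histone chaperones of DNA replication and related factors, 0 were 2-fold apart over all kept cells, with a median of 0.05. Asf1b, 1 of them, stood at 63.4 CPM after hyperoxia and 92.7 CPM after air in dividing cells. Of 8 genes for histone variants made outside S phase, 0 were 2-fold apart, and the senescence and stress list had 0 of 12 genes 2-fold apart. Between dividing and non-dividing cells 4.64% to 6.7% of all genes were at least 2-fold higher and 3.54% to 18.8% lower, depending on the library. In the lists, 4 of the 8 variant genes were at least 2-fold higher in each library, and H2afz, the most abundant H2A variant among those named here, stood at 1598 and 364 CPM after air at pnd7. H3f3a and H3f3b, which code for the variant H3.3, stood at 1514 and 1521 CPM in dividing and 1466 and 1423 CPM in non-dividing cells of that library, near-equal levels beside the large gap of the replication-dependent genes. Of the genes listed for chaperones and related factors, 4 or 5 of 9 were higher in dividing cells. Chaf1a, a subunit of chromatin assembly factor 1, stood at 45.7 and 4.36 CPM after air at pnd7. Of the processing genes 2 or 3 of 18 were higher, with Slbp at 128 and 40.1 CPM in that library.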

How the data were processed

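Raw counts of molecules per gene and cell were deposited. The submitters' processing notes name Cell Ranger, Seurat 3.2.1 and the build mm10, and the annotation release is not given in the sources used here. From these counts, cells with more than 700 and fewer than 8000 genes and under 5% mitochondrial counts were kept. Clusters were built without integration and without histone or cell cycle genes (scanpy 1.11.5, leidenalg 0.10.2, Python 3.11.15) and named from marker lists. Called doublets (1 to 156 cells per library) stayed in, and under 0.5% of cells were called in the pnd7 libraries. Counts were summed per library and kind of cell and given as CPM with exact Poisson intervals. Ratios carry Clopper-Pearson intervals, and a count of 0 was replaced by a floor of 3 counts, given as a bound. A gene was called at 2-fold or more among genes with at least 50 counts over both groups. There was 1 library per condition, hence no test between conditions. The intervals were tried only on simulated counts drawn independently, as the intervals assume. That trial does not cover real counts that cluster in few cells. Stem-loops and windows were read from GENCODE M21, promoters from RefSeq. The genes, lists and comparisons were chosen with earlier results of these data known, and named genes were all 6 of the rule, with the family features with most counts.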

Additional observations from a re-analysis of the deposited data

Results flagged for a closer look

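In non-dividing cells the 6 named genes had a log2 ratio of hyperoxia over air of -0.37 (-0.96 to 0.20) at pnd7. At pnd60 the ratio was 2.58 (1.79 to 3.47). The pnd7 interval includes 0, so its direction is not settled. The difference between the ages was not tested, and without erythroid-like cells the pnd7 value was 0.15.

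Barcodes that the filter removed also held counts of the named genes, 88 after air and 193 after hyperoxia at pnd7, 4 in the sorted library, 4 after air and 10 after hyperoxia at pnd60. Hist1h2al, under the minimum of 10 counts and so outside the sums, had 5 of its 8 counts in the sorted library.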

How the results depend on the processing

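All values are log2 ratios of the summed named genes. Without Hist1h2ao, the hyperoxia over air ratio in dividing cells at pnd60 reversed to -0.35, the sorted over unsorted ratio in dividing cells was -1.46, pnd60 over pnd7 after hyperoxia was -0.42 in non-dividing and -2.08 in dividing cells, and dividing over non-dividing after hyperoxia at pnd60 was 3.45. With each cell thinned to 1000 counts, dividing cells gave 0.52 for hyperoxia over air at pnd7, 2.89 at pnd60, -2.15 for sorted over unsorted, -2.56 for pnd60 over pnd7 in air and -0.19 after hyperoxia. Dividing over non-dividing was then 3.05, 4.27, 2.32, 3.73 and 4.01 in the 5 libraries. The sorted value rested on 6 and 3 counts and that after air at pnd60 on 5 and 7. With 2 cycle genes enough to call a dividing cell, the dividing-cell values were 0.35 at pnd7, -0.81 for sorted, -2.68 in air and -0.81 after hyperoxia over age, the non-dividing sorted value was at most 0.68, and dividing over non-dividing was 2.99, 3.74, at least 2.25, 3.26 and 2.61. With 8 genes and 0.2% required, the values were -0.02 at pnd7, -0.31 for sorted, 0.90 after hyperoxia over age and 5.87 for dividing over non-dividing after hyperoxia at pnd60. Relative to the median of all genes the sorted ratio in dividing cells was -0.09. Alternatives chosen after seeing the data were all 69 features, cells without erythroid-like ones and totals without hemoglobin. With all 69 features, dividing cells gave 0.35 at pnd7, 0.46 at pnd60, -1.31 for sorted and -1.61 after hyperoxia over age. Non-dividing cells gave 0.27 at pnd60, -0.86 in air and -0.73 after hyperoxia over age, and dividing over non-dividing was 3.12, 3.32, 3.00, 2.25 and 2.44. Without erythroid-like cells, pnd60 over pnd7 after hyperoxia was 0.04 in dividing cells and dividing over non-dividing after air at pnd7 was 5.32. The cause of these shifts was not tested. A wider filter, leaving out doublets and totals without hemoglobin each moved all 15 ratios by less than their intervals. No paired analysis was possible because no condition had a replicate, and leaving out a library would have left its condition empty. Counts limit the values most after air at pnd60, with 76 counts of the named genes, and reads of identical stretches could not be tied to a gene.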

Other observations

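Of the genes with enough counts over all kept cells, those with the highest ratios of hyperoxia over air at pnd60 were listed after their values were seen. Hist1h2ao led at 3.15 on the log2 scale. Cxcl13, a chemokine that attracts B cells, followed at 2.56 and Cilp, a matrix protein gene, at 2.42. Ppp1r18 had 26 counts after air and 156 after hyperoxia (2.42), Akr1b3, an aldose reductase gene, 38 and 224 (2.39), Lrch4 17 and 99 (2.38), and Il12b, which codes for a subunit of interleukin 12, 20 and 104 (2.21). H2bu2, an H2B gene, had 9 and 46 (2.19) and Nrm 18 and 86 (2.09). Ndufs5, a subunit of respiratory complex I, had 44 and 187 (1.92). Some of these genes were also higher in sorted than in unsorted hyperoxia cells at pnd7. The log2 ratios were 2.20 for Lrch4, 1.98 for Ppp1r18, 1.32 for Akr1b3 and 0.78 for Nrm. Ndufs5 stood at 28.8 and 14.4 CPM. Cilp (-1.54) and Hist1h2ao (-0.25) were lower when sorted. So were Cxcl13 (at most -3.70), Il12b (at most -3.27) and H2bu2 (at most -0.95), with 0 sorted counts each. Whether this goes with the share of Hist1h2ao was not tested.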
